A study of Mus musculus with 6 samples.

Results

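The Serpina3 protease inhibitor cluster of mouse chromosome 12 was taken as 6 named genes, Serpina3f, Serpina3g, Serpina3h, Serpina3i, Serpina3m and Serpina3n, matched by gene symbol. They were selected on their measured values in the contrast of interferon gamma (IFNg) against no treatment, so their own differences in that contrast are given as a description, with no test. Of the 6, 3 had a row among the 23127 genes of the table (Serpina3f, Serpina3g and Serpina3i). Serpina3h, Serpina3m and Serpina3n were not analysed here. RNA had been measured in 6 libraries of cells sorted for high Lgr5-GFP, a reporter of the crypt base stem cell gene Lgr5, from the small intestine of Lgr5-GFP mice of the C57BL/6 strain. The 3 IFNg libraries (2, 6 and 10) came from cells kept for 1.5 h with 1 ng/ml IFNg in a medium of EGF, Noggin and R-spondin1. The 3 untreated libraries (1, 5 and 9) carry the same 1.5 in their titles, and their labels name no cytokine. Neither the number of mice nor their age is stated, and all 6 libraries share the reporter allele. The question the series poses is how stem cell transcripts change on meeting IFNg.

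Serpins are protease inhibitors that offer the target enzyme a bait loop and, once cut, trap it in an inactive complex. Humans have a single SERPINA3 gene, for alpha-1-antichymotrypsin, an acute-phase plasma protein, whereas mice carry a row of related copies whose bait loops differ. Serpina3g, also called Spi2A, acts inside cells and inhibits lysosomal cysteine proteases such as cathepsin B. Serpina3n is secreted and inhibits granzyme B and neutrophil elastase. IFNg signals through its receptor and the JAK kinases, and many of its target genes carry DNA elements called gamma-activated sites (GAS). The transcription factor IRF1 and the SOCS feedback inhibitors are among its early targets.

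In GRCm38 (mm10) coordinates of the GENCODE M21 annotation, the 6 genes lie on the plus strand within 199.8 kb of chromosome 12. Serpina3f (ENSMUSG00000066363, protein coding) spans 104214544 to 104221129, and Serpina3g (ENSMUSG00000041481, protein coding) follows 15.1 kb downstream, from 104236245 to 104241939. Serpina3h, a transcribed unprocessed pseudogene, spans 104247905 to 104253669, and Serpina3i (ENSMUSG00000079014, protein coding) spans 104263122 to 104269372. Serpina3m lies at 104338486 to 104394257, where it overlaps Serpina3k and the pseudogene Serpina3l-ps on the same strand, and Serpina3n lies at 104406729 to 104414329. Serpina3f and Serpina3g overlap no other annotated gene.

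The promoters of the 2 members with values in all or nearly all libraries are shown because Serpina3f and Serpina3g are neighbours with similar upstream sequence and unlike levels after IFNg. Each runs from 250 bases before to 50 after the start in RefSeq (GRCm38.p6), 5′ to 3′ on the plus strand, at chr12:104214294-104214593 for Serpina3f and chr12:104235897-104236196 for Serpina3g. Capitals mark the match to the GAS letters TTCNNNGAA, which read the same on both strands.
Serpina3f: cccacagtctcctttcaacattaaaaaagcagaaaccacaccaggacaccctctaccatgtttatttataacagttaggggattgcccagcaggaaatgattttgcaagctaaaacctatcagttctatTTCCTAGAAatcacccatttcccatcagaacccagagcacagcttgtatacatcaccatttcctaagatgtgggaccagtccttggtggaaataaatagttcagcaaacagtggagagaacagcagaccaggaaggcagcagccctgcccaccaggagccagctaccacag
Serpina3g: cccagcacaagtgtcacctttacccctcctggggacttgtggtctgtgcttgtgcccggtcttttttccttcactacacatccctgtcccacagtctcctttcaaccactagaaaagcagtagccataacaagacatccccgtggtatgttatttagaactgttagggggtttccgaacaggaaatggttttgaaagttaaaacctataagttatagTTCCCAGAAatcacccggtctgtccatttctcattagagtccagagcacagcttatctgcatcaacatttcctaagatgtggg

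RefSeq promoters were at hand for 4 of the 6 members (Serpina3f, Serpina3g, Serpina3i and Serpina3n), and 3 of the 4 held 1 GAS match. The first base of the match stood at -121 in Serpina3f, -33 in Serpina3g and -102 in Serpina3i, counted from the RefSeq start. RefSeq gives Serpina3f another start further downstream, from which its match stood at -210. GENCODE begins Serpina3g further downstream, and counted from the GENCODE start the match lay 131 bases before Serpina3g, 121 bases before Serpina3f and 102 bases before Serpina3i. The same letters occurred in 8.30% of all 32851 mouse promoters of that length. By gene, they occurred in 9.55% of 27025 genes with a promoter and in 5 of 18 chromosome 12 Serpina genes with a promoter. A letter match is a description of the sequence and not a binding site.

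The 41 bases around the match are shown for the 4 members, since this stretch carries the difference between the 3 promoters with the letters and that of Serpina3n. The windows lie at chr12:104214407-104214447, chr12:104236098-104236138, chr12:104263004-104263044 and chr12:104406569-104406609, in the order below, all on the plus strand, and capitals mark the 9 bases at the GAS position.
Serpina3f: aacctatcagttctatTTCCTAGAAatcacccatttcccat
Serpina3g: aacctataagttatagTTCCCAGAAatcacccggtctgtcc
Serpina3i: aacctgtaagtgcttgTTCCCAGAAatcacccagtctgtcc
Serpina3n: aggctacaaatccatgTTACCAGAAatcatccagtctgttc

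Counted from 1 at the first of the 9 capital bases and with the base of Serpina3f given first, Serpina3g and Serpina3i each differed by T5C, within the stretch the motif leaves free. Serpina3n differed by C3A and T5C, and C3A removes the match. Over the 41 bases, Serpina3g shared 29 with Serpina3f, Serpina3i shared 28 and Serpina3n shared 22. Along the promoters, Serpina3f and Serpina3g were identical at 83.7% of 202 aligned bases and Serpina3f and Serpina3n at 70.8% of 281. The NF-kB motif, searched on both strands and found in 8.46% of all promoters, had a match in Serpina3g at -85 to -76 and in Serpina3i at -154 to -145, and none in these windows of Serpina3f and Serpina3n. The interferon-stimulated response element core (GAAA, any 2 bases, GAAA), searched on both strands and present in 3.44% of promoters, matched in none of the 4.

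The libraries held 28508762 to 40224497 reads in genes. Values are scaled counts, the authors' reads per gene divided by a size factor per library, and 1 read was worth 0.853 to 1.05 scaled counts. The titles tag libraries 6 and 5 as GFP1 and the other 4 as GFP3, with no meaning given. The first principal component (35.2% of variance) set the 2 GFP1 libraries apart, with IFNg 6 at 88.2 and untreated 5 at 54.9, against -18.7 and -18.3 for the GFP3 IFNg libraries and -59.0 and -47.2 for the GFP3 untreated libraries. Libraries 2 and 1 also differed from the rest in Xist. It was at 6147 in IFNg 2 and 8336 in untreated 1, against at most 16.9 in the other 4. The Y chromosome gene Ddx3y was at 0.964 in IFNg 2 and 1.72 in untreated 1, against 4219 to 6346 in the other 4. By these 2 genes, libraries 2 and 1 read as female and the other 4 as male. Since the tags stood apart on the first component, folds within each tag are given for the members with reads in both groups. They are also given for the non-member genes that a result turns on. GFP3 holds both female and male libraries, so its folds do not separate the sexes. All 10 listed crypt base stem cell markers were measured. Lgr5 averaged 4167 ± 1488 in IFNg and 5555 ± 2854 in untreated libraries (SD, n = 3 each). None of the 10 passed in limma (beside 0.416% higher and 0.0124% lower of all genes), edgeR (beside 0.373%) or DESeq2 (beside 3.27%). Their log2 differences were above 0 for 4 and below for 6. Only 2, Ascl2 and Smoc2, had an unadjusted p below 0.05 in limma, beside 9.22% of all genes. Ascl2 averaged 686.2 ± 157.7 in IFNg and 358.2 ± 297.5 in untreated libraries (limma adjusted p = 0.507). Smoc2 averaged 21417 ± 8213 in IFNg and 9741 ± 4113 in untreated libraries (limma adjusted p = 0.395). Both genes overlapped between the groups, since untreated 5 (701.6 for Ascl2, 13873 for Smoc2) was above the lowest IFNg library (573.7 and 12323). A comparison between the groups cannot show which cells the libraries held. Lyz1, a Paneth cell marker, averaged 40547 ± 34383 in IFNg and 73929 ± 46365 in untreated libraries. The Lyz1 groups overlapped (limma adjusted p = 0.821).

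Serpina3f carried most of the signal of the 3 measured genes after IFNg. It stood at 271.9, 178.2 and 487.8 scaled counts in IFNg 2, 6 and 10, against 0, 7.37 and 9.27 in untreated 1, 5 and 9. Every IFNg library lay above every untreated library, and the lowest IFNg value was far above the highest untreated value. The means were 312.7 ± 158.8 in IFNg libraries and 5.55 ± 4.90 in untreated libraries (SD, n = 3 each), a 56.4-fold difference. These values rest on 1047 reads in the IFNg libraries and 16 in the untreated libraries, which gives a 95% counting interval of 36.9-fold to 106-fold for the ratio (exact, counting error only). On the log2(scaled count + 1) scale the difference was 6.03 with a standard error of 0.88. This is a difference of mean logs and not the log of the 56.4-fold ratio. The added 1 shrinks differences at low counts, while the 0 of untreated 1 raises this one.

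The size of the Serpina3f difference rested on very few untreated reads. Untreated 1 had no read, which allows up to 3 reads or 2.58 scaled counts there, while untreated 5 and 9 had 7 and 9. Within the GFP1 tag the fold was 24.2 (1 library in each group), and within GFP3 it was 82.0. Leaving out 1 library at a time gave 37.6-fold without untreated 1 and 84.8-fold without untreated 9 as the lowest and highest, and 40.6-fold without IFNg 10, the highest library. Paired by neighbouring numbers, the log2 difference was 4.42 for IFNg 6 with untreated 5, 8.09 for IFNg 2 with untreated 1 and 5.57 for IFNg 10 with untreated 9.

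Serpina3g, the intracellular cathepsin inhibitor, stayed at a low level in both groups. It stood at 10.6, 13.6 and 23.7 scaled counts in IFNg 2, 6 and 10, against 5.16, 4.21 and 11.3 in untreated 1, 5 and 9. The groups overlapped, since untreated 9 was above IFNg 2. Means were 15.98 ± 6.85 in IFNg libraries and 6.90 ± 3.86 in untreated libraries (SD, n = 3 each), a 2.32-fold difference with a counting interval of 1.41-fold to 4.13-fold from 54 and 21 reads. The log2 difference of Serpina3g was 1.14 with a standard error of 0.75. In each neighbouring pair the IFNg library was the higher, by 0.91, 1.49 and 1.00 on the log2 scale for pairs 2 and 1, 6 and 5, and 10 and 9. The fold was 1.76 without IFNg 10, 3.41 without untreated 9, 3.24 within GFP1 and 2.08 within GFP3.

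Serpina3i gave 1 read in all, in untreated 5 (1.05 scaled counts), and was at 0 in the other 5 libraries. A count of 0 allows up to 3 reads, or 2.56 to 2.89 scaled counts in an IFNg library and 2.58 to 3.09 in untreated 1 and 9, so no difference was detectable at this depth. Serpina3i had 1 GAS match, like Serpina3f, and whether the match bears on the level of either gene was not tested.

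**Figure D1:**
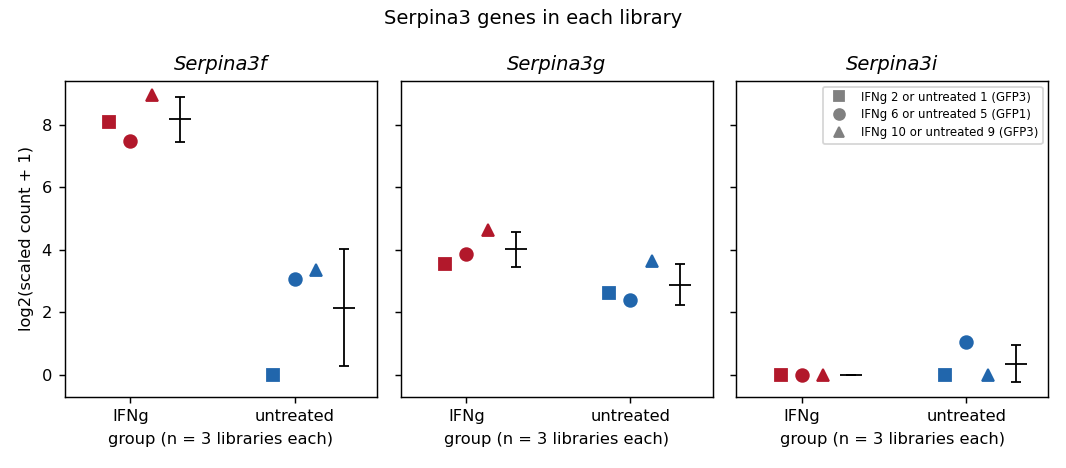
Level of Serpina3f, Serpina3g and Serpina3i in each library, on the log2(scaled count + 1) axis, with IFNg libraries left and untreated libraries right in each panel. Symbols mark neighbouring library numbers, and the bar and whiskers give the mean ± SD of the log2 values (n = 3 each). The Serpina3f groups are wide apart, the Serpina3g groups overlap, and Serpina3i has 1 point above 0.

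Per kilobase of merged exons (2290 bases for Serpina3f, 2105 for Serpina3g), the levels of these genes can be set side by side. In IFNg libraries Serpina3f was at 136.5 ± 69.3 scaled counts per kilobase and Serpina3g at 7.59 ± 3.25. In untreated libraries Serpina3f was at 2.42 ± 2.14 and Serpina3g at 3.28 ± 1.84, which differed by less than the spread between libraries. The number of Serpina3f scaled counts for each Serpina3g scaled count, not corrected for length, was 25.6, 13.1 and 20.6 in IFNg 2, 6 and 10, against 0, 1.75 and 0.818 in untreated 1, 5 and 9. Serpina3f lay above 61.1% of the genes in the table in IFNg libraries and above 23.4% in untreated libraries. For Serpina3g those shares were 35.8% in IFNg libraries and 26.3% in untreated libraries.

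Among 16095 genes that averaged 10 scaled counts or more, limma called 67 higher and 2 lower after IFNg (Benjamini-Hochberg adjusted p below 0.05), which is 0.416% and 0.0124%. Of the 3 measured members, 2 passed the filter on low values, both only through their IFNg libraries, since neither averaged 10 in untreated libraries. Serpina3f is 1 of the 67 and Serpina3g is not. Nothing is read from these calls, those of the alternatives or the ranks by fold, because the same contrast chose the genes. With neighbouring numbers as a block, Serpina3f was no longer among the calls, and it was called in 11 of 16 alternative analyses. Every IFNg library lay above every untreated library in 8.13% of tested genes and below in 5.06%. By fold, Serpina3f ranked 26 and Serpina3g 1238 of the 16095.

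Reads that fit several copies limit these values, because reads with more than 1 alignment were set aside in a row of their own (18.5% to 25.01% of all values). Of all 50-base windows in Serpina3f transcripts, 10.6% also occurred in transcripts of another gene, most often Serpina3g, and 3.40% of 100-base windows did. For Serpina3g the shares were 15.5% and 3.49%, most often with Serpina3h, and for Serpina3i 15.9% and 2.25%. No label states the read length. The Serpina3g value is the less certain, with few reads and more shared sequence, and how many of its reads were set aside was not tested.

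By profile over the 6 libraries, each gene centred on its own log2 mean, the 5 tested genes nearest to Serpina3f were Cxcl11, Cxcl9, Cxcl10, Hsf2bp and Ido1. Their root mean square distances were 0.76, 0.78, 0.80, 0.82 and 0.85 on the log2 scale, against a median of 3.30 over all tested genes and 2.65 for Serpina3g. Cxcl9, Cxcl10 and Cxcl11 encode the chemokines that attract T cells through CXCR3, and the annotation lists Cxcl11 as a polymorphic pseudogene. Ido1, the enzyme that starts tryptophan breakdown, averaged 1286 in IFNg and 32.7 in untreated libraries. Hsf2bp, a partner of heat shock factor 2 known from meiotic recombination, averaged 280.4 in IFNg and 16.6 in untreated libraries. In the untreated group, untreated 1 was the lowest library for Serpina3f and for each of these 5 genes. That follows in part from choosing them by likeness over the same 6 libraries. All 5 lie on other chromosomes than Serpina3f.

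The 5 genes nearest to Serpina3g were Gm26710, Slfn4, Bnipl, Pip5kl1 and RP24-67F19.7, at distances of 0.18 to 0.26 against a median of 0.91 over all tested genes. Slfn4, a schlafen gene of myeloid cells, averaged 276.5 in IFNg and 151.5 in untreated libraries. Bnipl, a relative of the BNIP2 cell death adaptor, averaged 16.3 in IFNg and 9.14 in untreated libraries. None of the 5 passed in limma, whose adjusted p was 0.464 to 0.876 for them. Like Serpina3g, each had its highest value in IFNg 10, which again follows in part from the choice by likeness.

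**Figure D2:**
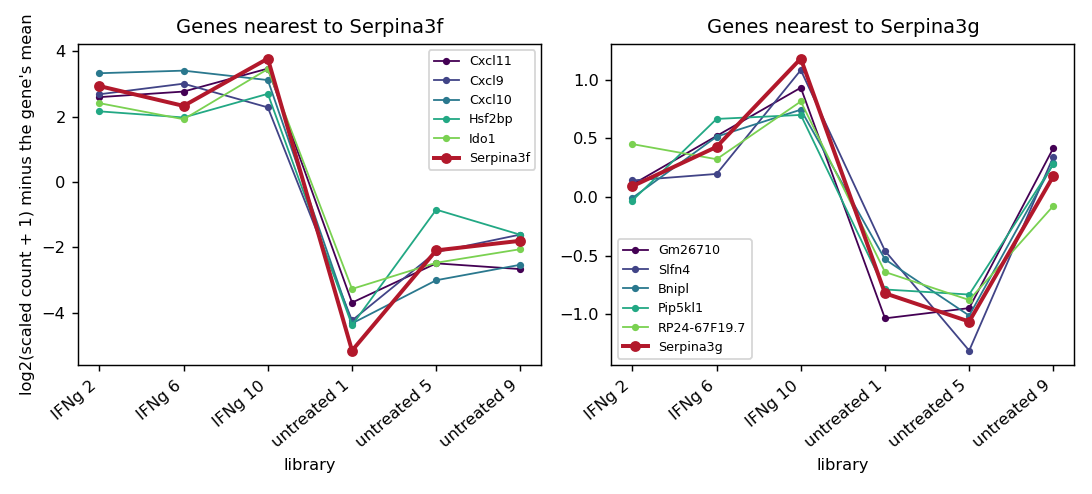
Profiles of Serpina3f and Serpina3g (thick red lines) with the 5 tested genes nearest to each, over the IFNg libraries and then the untreated libraries. The vertical axis is log2(scaled count + 1) minus the mean of the gene over the 6 libraries, and its range differs between the panels. The genes near Serpina3f fall to a low point at untreated 1, and those near Serpina3g peak at IFNg 10. Both follow in part from choosing the genes by likeness over these libraries.

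Along chromosome 12, GENCODE lists 28 genes named Serpina, 5 of them pseudogenes, and 11 had a row. Serpina10, which encodes the protein Z-dependent inhibitor of coagulation factor Xa and lies 583 kb from Serpina3f, stood at 81.95, 106.6 and 107.9 in IFNg 2, 6 and 10, against 12.0, 2.11 and 13.4 in untreated 1, 5 and 9. The groups did not overlap, at means of 98.8 ± 14.6 and 9.18 ± 6.16 for IFNg and untreated libraries (SD, n = 3 each). Serpina10 was 10.8-fold higher after IFNg (log2 difference 3.57, SE 0.66), with a limma adjusted p of 0.0794, which misses the threshold. It passed in 5 of 16 alternative analyses, among them DESeq2 (adjusted p = 3.62e-06) and the fit without untreated 5 (adjusted p = 0.0199), and the adjusted p reached 0.376 at most. The Serpina10 fold was 50.6 within GFP1, where untreated 5 had 2 reads, and 7.47 within GFP3.

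Serpina9, known as centerin in human germinal centre B cells, lay in the other direction. It stood at 54.0, 43.5 and 97.4 in IFNg 2, 6 and 10, against 165.2, 144.3 and 243.1 in untreated 1, 5 and 9, without overlap. The log2 difference was -1.54 (SE 0.42) with a limma adjusted p of 0.296, and of 16 alternatives it passed in DESeq2 alone (adjusted p = 0.0486, with 0.949 the highest). In each neighbouring pair the IFNg library was the lower for Serpina9, with log2 differences of -1.71, -1.60 and -1.31 for pairs 6 and 5, 2 and 1, and 10 and 9. The Serpina9 ratio of IFNg to untreated means was 0.353 over all libraries, 0.301 within GFP1 and 0.371 within GFP3. Summed B and plasma cell markers (7 of 7 measured) were 148.3 to 318.2 in IFNg libraries and 77.2 to 142.2 in untreated libraries, and their part in the Serpina9 difference was not tested.

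Nearer to the members, Serpina3e-ps, a pseudogene on the opposite strand upstream of Serpina3f, had 4 reads in IFNg libraries and 4 in untreated libraries. Gm8918, a processed pseudogene between Serpina3f and Serpina3g on the opposite strand, was at 32.3 ± 8.08 in IFNg and 31.3 ± 2.37 in untreated libraries (SD, n = 3 each). The high Serpina3f values were not matched by Gm8918, the next measured gene downstream. The 5 other Serpina3 genes looked for, of which no row was held, were not analysed here.

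**Figure D3:**
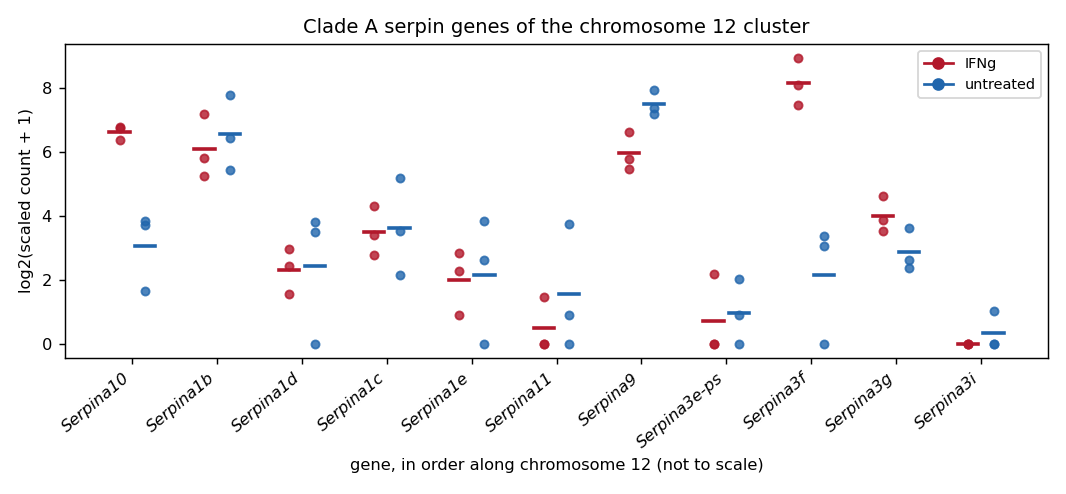
Level of each measured Serpina gene of chromosome 12, in gene order and not to scale, as log2(scaled count + 1), with IFNg libraries in red on the left and untreated libraries in blue on the right of each position. Points are libraries and lines their means on the log2 scale (n = 3 each). Serpina10 and Serpina3f are higher in every IFNg library, Serpina9 is lower in every one, and the other 8 genes overlap between the groups.

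Serpins outside the Serpina3 genes gave no limma call in either direction, at 0 of 4 tested other clade A genes, 0 of 5 clade B genes and 0 of 7 genes of other clades. Unadjusted p was below 0.05 for 2, 0 and 1 of them, beside 9.22% of all genes. EdgeR called none, beside 0.373% of all genes, and DESeq2 called 2 (Serpina10 and Serpina9), beside 3.27%. Their median log2 differences were -0.30, -0.05 and -0.29, beside -0.08 over all tested genes. Serpinb1a, an inhibitor of neutrophil elastase and cathepsin G, was far more abundant than any Serpina3 gene in scaled counts, at 18757 ± 3204 in IFNg and 19203 ± 1576 in untreated libraries. Serpinb9, the intracellular granzyme B inhibitor, was at 372.8 ± 129.9 in IFNg and 357.5 ± 107.5 in untreated libraries. Serping1, the C1 inhibitor of complement, was at 61.7, 50.3 and 69.3 in IFNg 2, 6 and 10, against 41.3, 1.05 and 12.4 in untreated 1, 5 and 9. The Serping1 groups did not overlap, and its limma adjusted p was 0.433. Its fold of 3.31 was 9.01 without untreated 1, 47.8 within GFP1, where untreated 5 had 1 read, and 2.44 within GFP3.

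**Figure D4:**
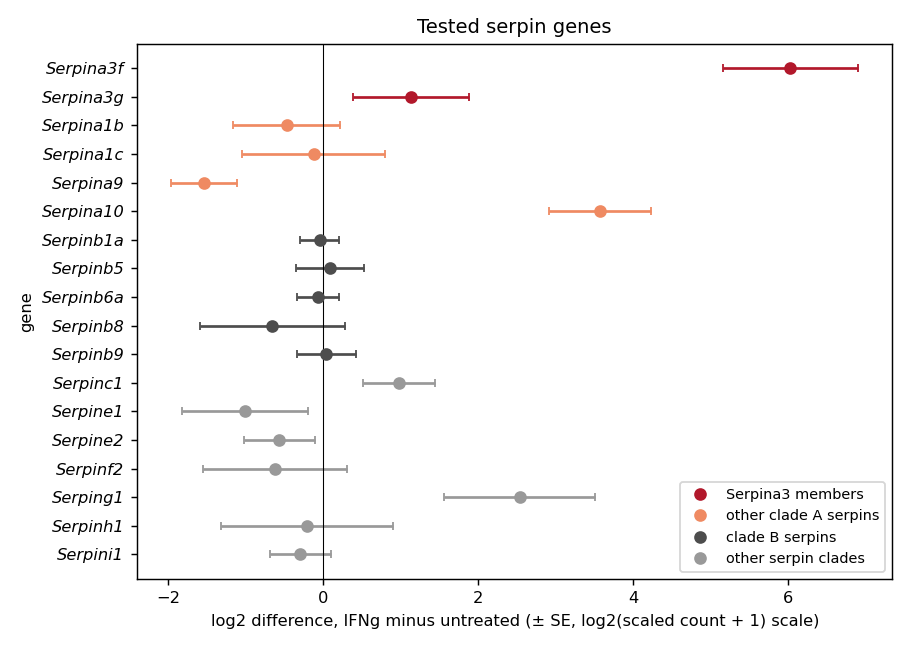
Log2 difference of each tested serpin gene, IFNg minus untreated, on the log2(scaled count + 1) scale, with its standard error from limma (n = 3 each). Serpina3f stands at 6.03, Serpina10 at 3.57, Serping1 at 2.54 and Serpina3g at 1.14, while the 5 clade B genes lie between Serpinb8 at -0.66 and Serpinb5 at 0.09.

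Proteases were described from lists of cathepsins with legumain and of granule serine proteases. The lists hold known targets of Serpina3g and Serpina3n, but not every listed gene is a known target. No target of Serpina3f is named here. Of 15 cathepsin and legumain genes, all had a row and 12 were tested. None passed in limma (beside 0.416% higher and 0.0124% lower of all genes), edgeR (beside 0.373%) or DESeq2 (beside 3.27%). None had an unadjusted p below 0.05 in limma, beside 9.22% of all genes. At such shares 12 genes need hold no call. The median log2 difference was -0.30 against -0.08 over all genes, with 2 above 0 and 10 below, beside 42.9% above 0 over all genes. Ctsb, the lysosomal protease cathepsin B that Serpina3g inhibits, was at 23357 ± 5088 in IFNg and 31487 ± 11936 in untreated libraries. Ctsl was at 2976 ± 576.9 in IFNg and 3226 ± 1235 in untreated libraries, and Ctss, a cathepsin of antigen processing, at 1371 ± 368.1 and 1360 ± 255.0 for IFNg and untreated libraries (SD, n = 3 each).

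Granule proteases of lymphocytes and neutrophils were low, apart from Gzmm. Gzmb, the granzyme that Serpina3n inhibits, averaged 0.964 scaled counts in IFNg libraries and 0.630 in untreated libraries, under the 3-read floor. Elane, neutrophil elastase, averaged 8.94 in IFNg and 10.99 in untreated libraries. Of 19 such genes, 9 had a row and 1 was tested, Gzmm, at 130.2 ± 5.16 in IFNg and 118.1 ± 27.8 in untreated libraries, which did not pass (limma adjusted p = 0.943).

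Signalling genes were described from a list of 24, all tested. Whether any of them acts on a Serpina3 gene in these cells was not tested. The list was chosen with earlier results of these data known, so its shares beside all genes are a description only. In limma 4 rose and none fell, beside 0.416% and 0.0124% of all genes. An unadjusted p below 0.05 was found for 12 of the 24, beside 9.22% of all genes. EdgeR called 4, beside 0.373% of all genes, and DESeq2 called 10, beside 3.27%. The median log2 difference was 1.16, with 20 of 24 above 0, beside -0.08 and 42.9% above 0 over all genes. Those that rose were Irf1 (33.6-fold, adjusted p = 2.33e-05), the transcription factor of the second wave, Irf8 (6.89-fold, adjusted p = 8.03e-04), the feedback inhibitor Socs1 (143-fold, adjusted p = 0.00124) and the feedback inhibitor Socs3 (12.2-fold, adjusted p = 0.00140), and each passed in 16 of 16 alternatives. The Irf1 fold was 32.0 within GFP1 and 34.4 within GFP3, and that of Irf8 was 6.22 and 7.25. Socs1 was 28.9-fold higher within GFP1, 440.3-fold within GFP3 and 343.6-fold without untreated 5. Socs3 was 7.22-fold higher within GFP1 and 17.1-fold within GFP3.

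The other genes of the list did not pass in limma, while DESeq2 called 10 of the 24. Stat3, the STAT of the interleukin 6 acute-phase route, was at 25772 ± 6409 in IFNg and 10052 ± 5501 in untreated libraries. Its limma adjusted p was 0.296, and its fold was 3.42 within GFP1 and 2.38 within GFP3. The Stat3 groups did not overlap, with 18450 the lowest IFNg and 16120 the highest untreated value. Stat3 passed in 2 of 16 alternatives. Cebpd, a C/EBP factor of acute-phase genes, stood at 327.8, 320.7 and 1288 in IFNg 2, 6 and 10, against 8.60, 83.2 and 14.4 in untreated 1, 5 and 9. The Cebpd groups did not overlap, the log2 difference was 4.47 (SE 0.84) and the limma adjusted p was 0.0874. The Cebpd fold of 18.2 was 9.16 without IFNg 10 and 56.1 without untreated 5, and it was 3.85 within GFP1 and 70.2 within GFP3. Cebpd passed in 3 of 16 alternatives, with adjusted p from 6.43e-05 to 0.339. Like Serpina3f, Cebpd was highest in IFNg 10 and lowest in untreated 1.

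**Figure D5:**
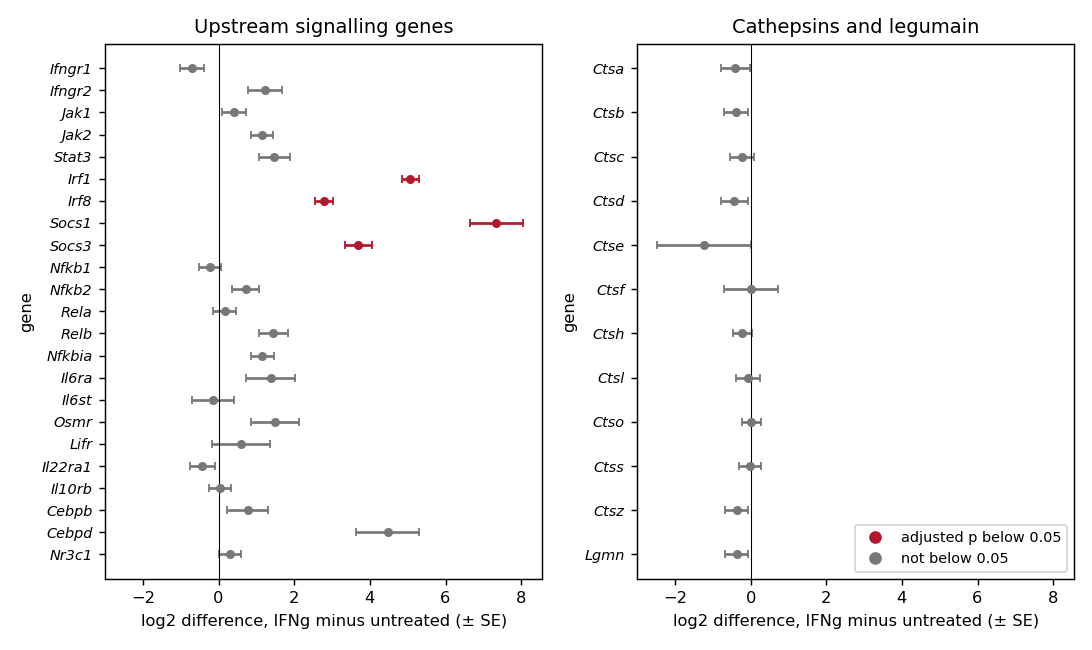
Log2 difference, IFNg minus untreated, with its limma standard error (n = 3 each), on the log2(scaled count + 1) scale. The left panel holds genes of the signalling list, whose action on Serpina3 genes was not tested. The right panel holds the 12 tested cathepsin and legumain genes. Red points passed at an adjusted p below 0.05. Irf1, Irf8, Socs1 and Socs3 are the red points, and no cathepsin is red.

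Markers of other cells were read beside Serpina3f and Serpina3g, since macrophages and T cells are also known to make Serpina3g. Summed T and natural killer cell markers (7 of 10 with a row) ran from 18.8 to 30.9 scaled counts in IFNg libraries and from 20.6 to 28.8 in untreated libraries. Cd3d was at 0 in IFNg 2, untreated 5 and untreated 9, and Cd3e in IFNg 6 and untreated 1. Summed myeloid markers (6 of 9 with a row) ran from 1132 to 1374 in IFNg and from 1206 to 1532 in untreated libraries, most of it Cd14, and Csf1r averaged 5.32 in IFNg and 16.01 in untreated libraries. Both sums overlapped between the groups, and the B and plasma cell sum given above did not, being higher in every IFNg library. Summed Paneth cell markers (11 of 12 with a row) were 24621 to 204961 in IFNg and 109565 to 367494 in untreated libraries, and these sums overlapped. All 11 had a log2 difference below 0, beside 42.9% above 0 over all genes. None of the 11 passed in limma, edgeR or DESeq2, and none had an unadjusted p below 0.05 in limma, beside 9.22% of all genes. Their part in the Serpina3 values was not tested. In these sorted bulk samples, fewer cells that carry a transcript and less of it per cell cannot be told apart.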

How the data were processed

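RNA of 6 libraries (3 IFNg, 3 untreated) was amplified with a SMART-Seq v4 kit, per the labels' protocols, without molecular identifiers or strand, so intervals and floors cover counting error only. The authors deposited scaled counts, a signal per gene. The aligner STAR 2.5.0a, HTSeq 0.5.3, cutadapt 1.6, DESeq 1.22.1 and the build mm10 are named, with no roles, per the submitters' processing notes. All 138762 values were whole multiples of the value of 1 read (within 0.01 read), which gave the reads. Values for reads given to no gene stayed out of library sizes and tests: 18.5% to 25.01% with several alignments, 9.67% to 14.2% outside genes, 8.83% to 15.4% unaligned and 0.948% to 1.20% ambiguous.

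The main test was limma 3.58.1 (R 4.3.3) on log2(scaled count + 1), trended and robust, two-sided, with Benjamini-Hochberg adjustment, for genes that averaged 10 or more. It was tested on simulated data. EdgeR 4.0.16 and DESeq2 1.42.0 on the recovered reads, other pseudocounts, filters and scalings, the title tag, a replicate block and leaving out each library were alternatives. Neighbouring end numbers were taken as pairs from the data, not the labels. Their deviations from group means correlated at 0.404 (2 and 1), 0.302 (6 and 5) and 0.252 (10 and 9). All other pairings were below 0, which follows in part because deviations from a group mean sum to 0. Whether each library comes from a mouse of its own is not stated. By Xist and Ddx3y, libraries 2 and 1 come from other mice than the rest. The p-values reflect library-to-library spread, part of which may be technical. No library repeated another (chi-square 62.7 to 505 per degree of freedom).

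Members and lists were chosen with earlier results of these data known. The text names all members, list genes that passed or whose role it describes, and the 5 nearest profiles. A gene of the signalling list that is counted in its totals is not reported here. Positions come from GENCODE M21, which held 23006 of 23127 gene IDs, 16901 of them in the same version. Promoters come from RefSeq (GRCm38.p6).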

Additional observations from a re-analysis of the deposited data

How the results depend on the processing

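The count of 67 genes higher and 2 lower after IFNg in limma changed to 457 higher and 8 lower with DESeq2, to 108 higher with the title tag as a covariate and to 1331 higher and 12 lower with the GFP3 libraries alone. With 1 library left out, 40 to 366 genes were higher and 1 to 3 lower: 366 were higher without untreated 5, 40 without IFNg 2 and 44 without IFNg 10. The fit with the replicate block gave 74 higher and 1 lower, a pseudocount of 0.5 gave 63 higher and 1 lower, and edgeR gave 58 higher and 2 lower. The cause of these shifts was not tested. Serpina3f kept a positive log2 difference in 16 of 16 alternatives (4.93 to 6.83), and so did Serpina3g (0.82 to 1.51), which was called in 0 of them. Every alternative fits the contrast that chose both genes, so this is a description and no independent support. Beside Serpina3f, the block changed no call among the serpins, and no gene followed through the alternatives changed sign. TMM moved the median of all genes to -0.12. Serpina3g rests on 4 to 27 reads a library and Serpina3i on 1 read in all, so depth limits both.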

Other observations

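Acute-phase and epithelial defence genes, of which SERPINA3 is a human example, gave 18 of 22 rows and 8 tested genes. None passed in limma (beside 0.416% higher and 0.0124% lower of all genes), edgeR (beside 0.373%) or DESeq2 (beside 3.27%). None had an unadjusted p below 0.05 in limma, beside 9.22% of all genes. Their median log2 difference was 0.20 beside -0.08 over all genes. Lcn2, which encodes the iron-binding protein lipocalin 2, was at 44.9 ± 20.9 in IFNg and 46.7 ± 26.9 in untreated libraries (SD, n = 3 each). Reg3g, an antibacterial lectin, was at 5578 ± 3851 in IFNg and 5116 ± 3457 in untreated libraries, with its highest values in the GFP1 libraries (9983 in IFNg 6 and 9039 in untreated 5). The liver genes Saa1 and Hp averaged 3.86 and 6.75 in IFNg libraries, against 1.40 and 6.90 in untreated libraries.

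Cystatins, the other main inhibitors of cysteine cathepsins, had 3 tested genes. None was called by limma (beside 0.416% higher and 0.0124% lower of all genes), edgeR (beside 0.373%) or DESeq2 (beside 3.27%). None had an unadjusted p below 0.05 in limma, beside 9.22% of all genes. Cstb, which acts inside cells as Serpina3g does, stood at 5894, 8441 and 5292 in IFNg 2, 6 and 10, against 2772, 5105 and 4930 in untreated 1, 5 and 9, with a limma adjusted p of 0.646. The Cstb groups did not overlap. Cst3, a secreted cystatin, was at 4184 ± 1282 in IFNg and 4689 ± 982.8 in untreated libraries (SD, n = 3 each).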
